A study of Homo sapiens with 24 samples.

Results

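The long noncoding RNA PURPL was lowered in SK-HEP-1 cells while p53 was switched on with Nutlin-3a, and polyadenylated RNA was sequenced. The comparison takes 10 of the 24 libraries of the series, namely 6 libraries of the PURPL guide lines sg4, sg5 and sg6 and 4 libraries of the non-targeting control lines NTC1 and NTC2. They were chosen by guide and treatment from the sample labels. Each line carried 1 guide RNA for CRISPR interference (CRISPRi), in which a catalytically inactive Cas9 with a repressor domain is brought to a promoter, and all 5 lines had received 10 µM Nutlin-3a for 6 h. Each line gave 2 libraries, whose titles end in 1 or 3. The labels call them biological replicates, and harvest 1 and harvest 3 are names used here for these numbers. What separates the numbers is not explained in the labels. The guide belongs to the line, so the 2 harvests of a line were added and the line was the replicate, with 3 PURPL guide lines against 2 NTC lines. A line is a single established culture per guide, and whether it is 1 clone is not given in the sources used here. Another PURPL guide line, sg2, was left out because its library of harvest 1 had a strong dependence on GC content, and the vehicle libraries are not part of this comparison.

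SK-HEP-1 cells grow as a permanent human culture that was started from a tumour of the liver. Nutlin-3a blocks the pocket of MDM2 that holds p53, so that p53 escapes degradation and activates its targets. PURPL is a p53-induced noncoding RNA that was described as a negative regulator of p53 protein levels, with the nucleolar protein MYBBP1A as a binding partner. The comparison therefore asks whether cells with little PURPL differ in their RNA once p53 is active, in p53 targets above all.

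The PURPL promoter is shown because PURPL is the target of the guides and a p53-induced RNA. The window below, from RefSeq on GRCh38.p14, runs from 250 bases before to 50 bases after the annotated start, at chr5:27472042-27472341 on the plus strand. Capitals mark 2 adjacent copies of the 10-base p53 half-site, which begin 127 bases before the start. The half-site was searched as its consensus on both strands and occurs in 6.63% of 35116 promoter windows of this length, and a match of letters is not a measured binding site.
PURPL: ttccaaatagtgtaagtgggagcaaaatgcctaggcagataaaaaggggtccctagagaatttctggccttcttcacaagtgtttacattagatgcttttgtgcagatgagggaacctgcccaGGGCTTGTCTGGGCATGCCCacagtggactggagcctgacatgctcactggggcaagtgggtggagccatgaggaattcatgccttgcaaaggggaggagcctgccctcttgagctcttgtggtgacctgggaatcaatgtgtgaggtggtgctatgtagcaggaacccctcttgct

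The libraries held 66.4 M to 79.4 M counts (median 71.0 M). The mitochondrial share of counts was 1.10% to 1.47% in NTC libraries and 1.11% to 1.33% in PURPL guide libraries. The labels class the cells as endothelial, but of 18 endothelial markers 8 passed the filter on low counts, PECAM1 reached at most 0.028 CPM (counts scaled to a common library size) and CDH5 0.045 CPM, and ERG, PLVAP, STAB2 and LYVE1 were at 0 in all 10 libraries. Albumin (ALB) reached at most 0.015 CPM and CDH1 0.043 CPM, whereas vimentin (VIM) stood at 4121 CPM in the NTC mean. Other members of these lists were present. In the NTC libraries the endothelial list summed to 24.7 to 30.8 CPM and the hepatocyte list to 14.1 to 14.9 CPM. The epithelial list summed to 1833 to 2148 CPM there. The endothelial markers named here, ALB and CDH1 were thus absent or nearly so, but not the lists as a whole. The level of a library against transcript GC content had a slope of -0.124 to 0.139 (log2 per 10 percentage points of GC) in 9 of the 10 libraries and 0.338 in harvest 3 of sg5. That library also had the lowest median correlation with the others, 0.986 against 0.994 to 0.997, and the larger shifts without it are given beside the values they concern.

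PURPL, the targeted RNA (ENSG00000250337.6, lincRNA, chromosome 5, 27472292 to 27496401 on hg38, plus strand), was far lower in all 3 guide lines. The NTC libraries had 30.3 and 38.8 CPM (NTC1) and 31.9 and 30.8 CPM (NTC2). The sg4 libraries had 1.91 and 2.44 CPM, those of sg5 2.98 and 2.13 CPM, and those of sg6 1.65 and 1.62 CPM. Every guide library thus lay below every control library, with 116 to 205 counts behind each guide value and 2119 to 2843 behind each control value. As sums of the harvests, sg4 kept 6.58%, sg5 7.66% and sg6 4.96% of the NTC mean of 33.0 ± 2.26 CPM (SD, n = 2 lines). The mean of the guide lines was 2.11 ± 0.449 CPM (SD, n = 3 lines). PURPL fell by 3.96 on the log2 scale (SE 0.14, 95% interval -4.28 to -3.65, edgeR quasi-likelihood test, adjusted p = 1.01e-05). Exact two-sided permutation of the 5 lines into their 10 possible splits gave p = 0.1, the smallest p that this number of lines allows.

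**Figure D1:**
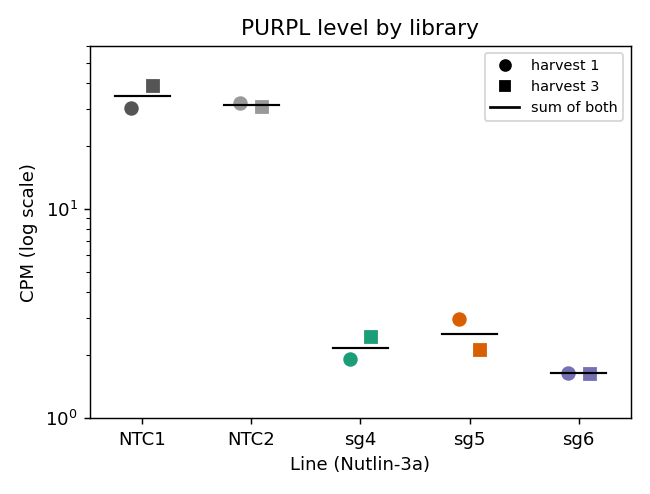
PURPL level in CPM on a log axis for each of the 10 libraries with Nutlin-3a, by line. Circles are harvest 1, squares harvest 3, and the bar is the value of both harvests summed. The 4 control libraries lie between 30.3 and 38.8 CPM and the 6 guide libraries between 1.62 and 2.98 CPM.

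Of the 3 guides compared, sg6 left the least PURPL. Against the mean of both NTC lines, in a model of 5 line means over the 10 libraries, the log2 difference was -3.92 (SE 0.19) for sg4, -3.69 (SE 0.19) for sg5 and -4.33 (SE 0.20) for sg6. These 3 values share their controls. The test among the 3 guides gave an unadjusted edgeR p of 0.0331 for PURPL and an adjusted p of 1. In this model the spread is that between harvests of a line and not that between lines.

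PURPL was the 1 gene of 16694 tested that passed an edgeR adjusted p of 0.05 between the PURPL guide lines and the NTC lines (0.00599%), and 0 genes passed as higher. At an unadjusted p under 0.05, 1524 genes were higher (9.13%) and 821 lower (4.92%). Other settings, and single lines or libraries left out, gave other counts. DESeq2 called 190 genes (1.14%; 131 higher, 59 lower) and a fit with no filter on low counts 172 (125 higher, 47 lower). Leaving out line sg5 gave 570 calls among 16499 genes tested (366 higher, 204 lower). Leaving out harvest 3 of sg4 gave 265 among 16683 (223 higher, 42 lower). Leaving out line NTC1, harvest 3 of NTC1 or harvest 3 of NTC2 gave 2 calls each, and leaving out harvest 1 of sg6 gave 3. Genes that DESeq2 placed higher had a median transcript GC content of 57.2% and those it placed lower 43.1%, against 47.5% for all genes tested, and the log2 difference of the comparison itself had a slope of 0.109 per 10 points of GC. The part of GC content in the DESeq2 calls was not tested. In edgeR, removing the GC trend took the count from 1 to 6 calls (0.0359%).

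The fit on line sums gives a range for the size of the differences. Of 12161 genes with at least 1 CPM, 99.4% had a 95% interval of the log2 difference that lay within 1 in either direction, and 88.1% one within 0.5. The median SE was 0.062 and the median absolute log2 difference 0.076. These intervals rest on the spread between 5 line sums and may be too narrow. On average the harvests of a line spread more than the lines did, with a correlation within lines of -0.306 in limma voom. For MT-ND6 the SE was 0.061 in this fit and 0.28 for sg4 in the model of line means. Differences of at least 0.5 were estimated for 124 genes, 100 of them higher and 24 lower in the guide lines. Besides PURPL, 6 genes reached 2-fold at 1 CPM or more, none of which passed the threshold. U2AF1L5 (log2 difference 1.54) and SMIM11A (-1.12) have near-identical copies elsewhere in the genome, so that the counting could split their reads, and the harvests of 1 line differed as much as the groups did: U2AF1L5 had 12.1 and 91.9 CPM in the 2 harvests of sg6. The others were AC099329.1 (-2.40), AC234031.1 (1.53), AP001273.2 (1.19) and AC020915.5 (1.12), which lay below 4 CPM in each line.

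**Figure D2:**
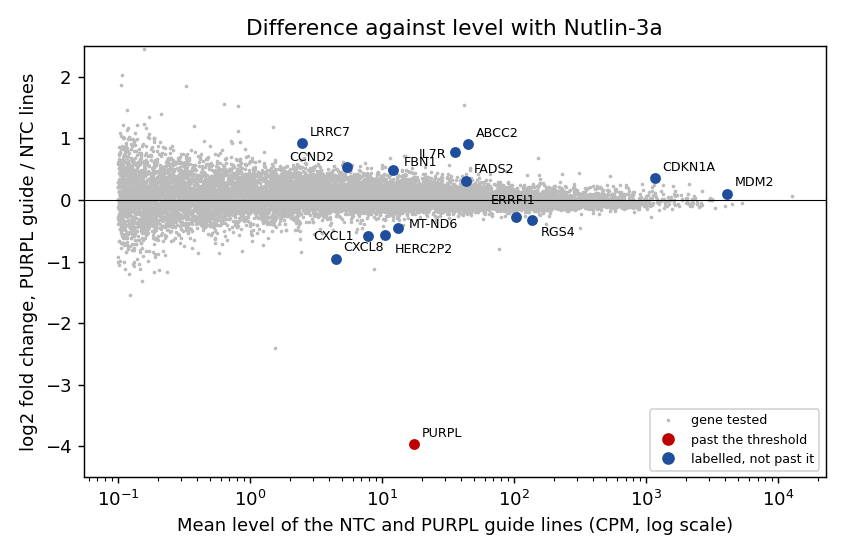
Log2 difference between PURPL guide lines and NTC lines (vertical) against the mean level of both groups in CPM (horizontal, log axis), 1 point per gene tested with a mean over 0.1 CPM. PURPL, in red at -3.96, is the gene past the threshold, and the labelled genes in blue, from CXCL8 at -0.95 to LRRC7 at 0.92, did not pass it.

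CXCL8 had the smallest p after PURPL. It encodes interleukin 8, a chemokine that draws neutrophils and a textbook target of NF-kB. The NTC libraries had 7.67 and 4.84 CPM (NTC1) and 7.76 and 3.70 CPM (NTC2), and the 6 guide libraries 2.44 CPM at the lowest, 2.96 CPM in the median and 4.14 CPM at the highest. The highest guide library, harvest 1 of sg5, lay above the lowest control library, harvest 3 of NTC2, while the sums of harvests did not overlap: 6.24 and 5.58 CPM in NTC1 and NTC2 against 2.87, 3.34 and 2.97 CPM in sg4, sg5 and sg6. The guide lines thus had 51.8% of the NTC mean, a log2 difference of -0.95 (SE 0.10, 95% interval -1.18 to -0.72, edgeR adjusted p = 0.0755). It did not pass in the fit as designed, and passed in 8 of 31 alternatives, among them DESeq2 (adjusted p = 5.76e-11), edgeR with the GC trend removed (0.0372) and edgeR without harvest 3 of NTC2 (0.0101). Over the alternatives the adjusted p ran from 5.76e-11 to 0.979.

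Other chemokines of the same cluster on chromosome 4 were examined beside it, after their values had been seen. CXCL1, a neutrophil chemokine, had 12.5, 7.84, 10.7 and 6.81 CPM in the NTC libraries and 4.84 to 8.77 CPM (median 6.07) in the guide libraries, which overlap. Its line sums were 10.1 and 8.64 CPM against 5.66, 7.02 and 6.07 CPM (log2 difference -0.59, SE 0.11, edgeR adjusted p = 0.329). CXCL2 had 1.71 and 1.63 CPM against 0.862, 1.65 and 0.77 CPM, with sg5 between the NTC lines (-0.62, SE 0.28, edgeR adjusted p = 0.367). CXCL3 had 0.798 and 0.698 CPM against 0.477, 0.663 and 0.452 CPM (-0.50, SE 0.20, edgeR adjusted p = 0.341). Within each of the 5 lines harvest 1 had more CXCL8 and more CXCL1 than harvest 3, in the guide lines and in the controls alike.

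The promoters of these 4 genes carry the same short NF-kB motif, which is shown as a match of letters. What else they share upstream was not tested. The windows below are 40 bases of the RefSeq promoters on GRCh38.p14, on the strand of the gene, with GGAATTTCC in capitals. The motif lies 91 bases before the start of CXCL8 (chr4:73740463-73740502, plus strand), 78 before that of CXCL1 (chr4:73869300-73869339, plus), 77 before that of CXCL2 (chr4:74099248-74099287, minus) and 78 before that of CXCL3 (chr4:74038743-74038782, minus). Searched on both strands, it occurs in 0.461% of 35116 promoter windows. In CXCL1, CXCL2 and CXCL3 the bases around the motif are also nearly the same, so their matches may not be independent of each other. A part of NF-kB in the values of these genes was not tested. The data here hold no measure of binding at these sites.
CXCL8: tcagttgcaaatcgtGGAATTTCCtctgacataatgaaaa
CXCL1: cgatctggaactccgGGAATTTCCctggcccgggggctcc
CXCL2: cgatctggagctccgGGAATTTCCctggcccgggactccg
CXCL3: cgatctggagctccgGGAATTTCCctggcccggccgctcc

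The rest of the NF-kB and cytokine list was mixed. Of its 22 members tested, 2 had all 3 guide lines above both NTC lines and 5 had all 3 below, with a median log2 difference of -0.03 (-0.08 with the GC trend removed). Over all genes tested, 20.3% had all guide lines above and 19.1% all below, and the median was 0.00. IL1A and IL1B, the interleukin 1 cytokines, were the 2 that lay above, with log2 differences of 0.14 and 0.13 (0.26 and 0.21 without harvest 3 of sg5). The inhibitor NFKBIA had -0.06 and the subunit NFKB1 -0.01 (-0.11 and -0.03 with the GC trend removed). In the list edgeR called 0 members, with 2 higher and 4 lower at an unadjusted p under 0.05. Among all genes 9.13% were higher and 4.92% lower at that p. DESeq2 called CXCL1 and CXCL8, and edgeR without line sg5 called CXCL1, CXCL2, CXCL8 and IL6, all lower. DESeq2 called 59 of all 16694 genes lower, and edgeR without line sg5 204 of 16499.

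RGS4 and ERRFI1 also lay lower in the guide lines, by smaller amounts. RGS4, which speeds the shut-off of G protein signals, had 152, 147, 163 and 148 CPM in the NTC libraries and 118 to 136 CPM (median 120) in the guide libraries. No guide library reached a control library for RGS4 (log2 difference -0.32, SE 0.05, edgeR adjusted p = 0.247). ERRFI1, a feedback inhibitor of the EGF receptor, had 118, 113, 119 and 106 CPM against 89.3 to 101 CPM (median 94.7), again without overlap (-0.27, SE 0.04, edgeR adjusted p = 0.241). Such separation of all libraries held for 188 genes in the lower direction (1.13%) and 125 in the higher (0.749%). EGR1, an immediate early transcription factor, had line sums of 9.72 and 9.21 CPM against 7.27, 5.12 and 5.91 CPM (-0.63, SE 0.13, edgeR adjusted p = 0.329), and its libraries overlapped. MDM4, the MDM2 relative that restrains p53, had 49.9 and 49.8 CPM against 44.3, 42.9 and 42.5 CPM (-0.21, SE 0.04, edgeR adjusted p = 0.329), and its libraries overlapped. It was named after its values were seen.

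Among genes of at least 1 CPM, the pseudogene HERC2P2 and the mitochondrial gene MT-ND6 followed CXCL8 by p. HERC2P2 had line sums of 13.2 and 12.0 CPM against 8.52, 8.18 and 8.96 CPM (log2 difference -0.56, SE 0.07, edgeR adjusted p = 0.145), and its libraries overlapped. It is one of a family of near-identical HERC2 copies, so its count is uncertain. A further copy, HERC2P9, named after its values were seen, had 7.96 and 7.51 CPM against 6.13, 5.74 and 6.10 CPM (-0.37, SE 0.08, edgeR adjusted p = 0.329). MT-ND6 encodes a subunit of respiratory complex I and is the mitochondrial messenger RNA of the light strand. It had 15.9 and 15.0 CPM against 11.0, 11.4 and 11.2 CPM (-0.46, SE 0.06, edgeR adjusted p = 0.145), while the libraries overlapped, with harvest 3 above harvest 1 in each line. The other 12 mitochondrial messenger RNAs had log2 differences of -0.27 to 0.09 (median -0.08). MT-ND6 lies opposite other mitochondrial transcripts, and the sources used here do not say if the counts are strand-specific.

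Among genes of at least 1 CPM with higher levels in the guide lines, LRRC7, a scaffold protein of neuronal synapses, had the smallest p. It had 1.78, 1.98, 1.55 and 1.57 CPM in the NTC libraries and 2.40 to 4.33 CPM (median 3.00) in the guide libraries, with no overlap. Its log2 difference was 0.92 (SE 0.13, edgeR adjusted p = 0.224), and the adjusted p was 0.0432 with the GC trend removed. Cyclin D2 (CCND2), which drives entry into the cell cycle with CDK4 and CDK6, had line sums of 4.25 and 4.60 CPM against 6.65, 6.13 and 6.49 CPM (0.54, SE 0.09, edgeR adjusted p = 0.295, and 0.0432 with the GC trend removed). The fatty acid desaturase FADS2 had 39.2 and 38.7 CPM against 49.7, 49.6 and 46.2 CPM (0.32, SE 0.05, edgeR adjusted p = 0.247), and 0.17 with the GC trend removed. Fibrillin 1 (FBN1), a microfibril protein, had 9.15 and 10.8 CPM against 13.8, 14.6 and 13.8 CPM (0.49, SE 0.08, edgeR adjusted p = 0.329). AP1M2, a subunit of a clathrin adaptor, differed by 0.24 (SE 0.04, edgeR adjusted p = 0.329), and by 0.14 with the GC trend removed. The libraries of CCND2, FADS2, FBN1 and AP1M2 overlapped between the groups. FADS2 had 33.1 to 43.1 CPM in the NTC libraries and 34.6 to 57.5 CPM in the guide libraries. ERRFI1, LRRC7, FADS2, CCND2, TP53I3 and MDM2 overlap other genes tested, and ZBED6 (-0.24, SE 0.04, edgeR adjusted p = 0.279; -0.14 without harvest 3 of sg5) lies within ZC3H11A, so their counts carry that uncertainty.

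**Figure D3:**
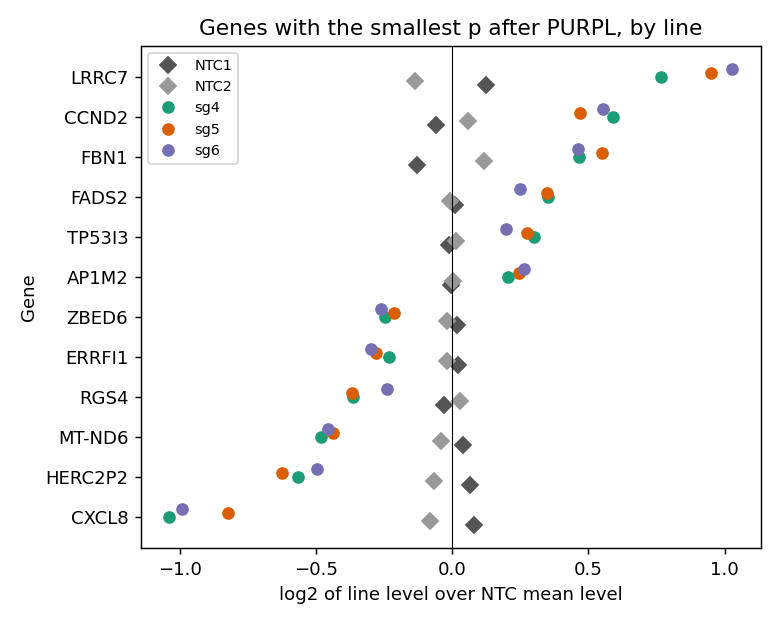
Log2 of each line's level over the mean of both NTC lines for the 6 genes lower and the 6 genes higher with the smallest p after PURPL, among genes of at least 1 CPM. Diamonds are NTC1 and NTC2, circles sg4, sg5 and sg6. The guide lines lie on 1 side of both NTC lines for each of the 12 genes, and none of them passed the threshold. The genes were picked by p from this same comparison, so the separation of their lines is not further support. Single libraries of the groups overlapped for all of them but RGS4, ERRFI1 and LRRC7.

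The p53 targets did not pass the test one by one, and most of the differences that were estimated pointed up. CDKN1A encodes p21, the inhibitor of cyclin-dependent kinases through which p53 arrests cells. Its NTC libraries had 952, 1067, 965 and 1083 CPM, and its guide libraries 1092 to 1585 CPM (median 1322), with no overlap. As line sums, 1011 and 1035 CPM stood against 1209, 1500 and 1231 CPM (log2 difference 0.36, SE 0.09, 95% interval 0.16 to 0.56, edgeR adjusted p = 0.329). Line sg5 gave the highest value: without it the log2 difference was 0.25 (edgeR adjusted p = 0.00127), and with the GC trend removed it was 0.21 (0.155). MDM2, the ubiquitin ligase that p53 induces and that degrades p53, had 3858 and 4077 CPM against 4238, 4341 and 4223 CPM (0.11, SE 0.04, 95% interval 0.01 to 0.20, edgeR adjusted p = 0.347). The libraries of MDM2 overlapped, with 3491 and 5276 CPM in the 2 harvests of sg5 alone, and the log2 difference was 0.20 without harvest 3 of sg5. The antiproliferative gene BTG2 differed by 0.12 (SE 0.04, edgeR adjusted p = 0.329).

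As a list, growth arrest and p53 feedback genes had all guide lines above both NTC lines for 14 of 28 members tested (50%). All lay below for 4, and the median log2 difference was 0.10. For all genes tested the shares were 20.3% above and 19.1% below. SFN (14-3-3 sigma) had 0.53, but 0.22 without harvest 3 of sg5 and 0.29 with the GC trend removed. The oxidative stress sensor SESN2 had 0.20 (0.02 with the GC trend removed) and the p53 target E2F7, a repressor of cell cycle genes, -0.11 (-0.07 in both of these alternatives). The apoptosis list had 9 of 21 above and 2 below (median 0.13), with the mitochondrial pore protein BAX at 0.30, FDXR, which reduces ferredoxin, at 0.48 and the quinone reductase TP53I3 at 0.26. Without harvest 3 of sg5 these were 0.12, 0.32 and 0.22, and with the GC trend removed 0.13, 0.26 and 0.11. The death receptors FAS (-0.04, and 0.01 with the GC trend removed), TNFRSF10A (-0.03) and TNFRSF10B (0.02) lay near 0. The list of DNA repair and metabolism had 10 of 27 above and 3 below (median 0.06), with SLC2A1, a glucose transporter, at 0.22 and the repair gene DDB2 at 0.10, or 0.14 and 0.06 with the GC trend removed. Without harvest 3 of sg5 the 3 lists had 17, 8 and 9 members above and 1, 1 and 3 below, beside 16.9% and 14.6% of all genes, and medians of 0.12, 0.07 and 0.06. With the GC trend removed their medians were 0.05, 0.07 and 0.03. In these lists 0 members passed an edgeR adjusted p of 0.05. At an unadjusted p under 0.05, 12, 6 and 6 were higher and 2, 0 and 1 lower, beside 9.13% and 4.92% of all genes. DESeq2 called CDKN1A and SFN, FDXR and TP53I3, and SLC2A1 in the 3 lists, all higher, beside 131 of all 16694 genes. The lists do not mark whether p53 raises or lowers a member, SLC2A1 included. A higher level of a member is thus not by itself a stronger p53 response. Without line sg5, edgeR called 5, 3 and 4 members as higher and 2, 0 and 1 as lower. That fit called 366 of all 16499 genes higher and 204 lower. With the GC trend removed edgeR called 0 in each. Genes of a list can move together, so a share of members on 1 side is not a count of independent results.

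The long noncoding RNAs linked to p53 had 2 of 12 above and 4 below (median -0.06), and 2 and 0 without harvest 3 of sg5. For all genes tested the shares were 20.3% above and 19.1% below, and 16.9% and 14.6% without that library. NEAT1, the scaffold RNA of paraspeckles, had 410 and 323 CPM against 253, 280 and 273 CPM (log2 difference -0.45, SE 0.09, edgeR adjusted p = 0.329), and MALAT1, a nuclear RNA of speckles, 71.9 and 58.1 CPM against 54.2, 51.0 and 52.6 CPM (-0.31, SE 0.08, edgeR adjusted p = 0.329). Harvest 3 of NTC1 was the highest library for both, with 498 CPM of NEAT1 against 313 to 331 CPM in the other 3 NTC libraries, and the 6 guide libraries ran from 184 to 360 CPM. Both are nuclear-retained RNAs, and of the 12 nuclear-retained and mitochondrial transcripts kept as markers of RNA quality 0 had all guide lines above and 5 all below (median -0.11), or 2 below without harvest 3 of sg5. The summed level of these 12 ran from 9239 to 13129 CPM in the NTC libraries and from 9232 to 11392 CPM in the guide libraries. The part of RNA quality in the NEAT1 and MALAT1 values was not tested.

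Genes of G2 and mitosis lay slightly lower in the guide lines. Of 40 tested, 26 had all guide lines below both NTC lines (65%) and 0 had all above, beside 19.1% and 20.3% of all genes. The median log2 difference was -0.10 and the range -0.22 to 0.11. None passed an edgeR adjusted p of 0.05, and 18 were lower and 0 higher at an unadjusted p under 0.05. Among all genes 4.92% were lower and 9.13% higher at that p. DESeq2 called 2 of them lower, CENPE and MKI67, and edgeR without line sg5 called 6 lower, AURKA, ECT2, KIF23 and PLK4 besides these. DESeq2 called 59 of all 16694 genes lower, and edgeR without line sg5 204 of 16499. MKI67, the proliferation antigen, had 483 and 480 CPM against 417, 434 and 433 CPM (-0.17, SE 0.04, edgeR adjusted p = 0.329). Its harvests differed more than its lines, with 585 and 383 CPM in NTC1, the latter below the 384 to 482 CPM of the guide libraries, and from harvest 3 alone the log2 difference turned to 0.04. CENPE, a kinetochore motor, had 94.1 and 96.8 CPM against 84.1, 78.0 and 86.1 CPM (-0.21, SE 0.05, edgeR adjusted p = 0.329), and the centriole kinase PLK4 had -0.22. Cyclin B1 (CCNB1) had -0.14, the mitotic kinase AURKA -0.16 and FOXM1, the transcription factor of this programme, -0.01 (-0.09 without harvest 3 of sg5 and -0.11 with the GC trend removed). The medians against the NTC mean, which the guides share, were -0.10 for sg4, -0.17 for sg5 and -0.05 for sg6. Without harvest 3 of sg5, 28 members lay below and 0 above, beside 14.6% and 16.9% of all genes. The median with the GC trend removed was -0.09. Of the 40 genes, 1 had every guide library below every control library, beside 1.13% of all genes tested. The summed level of the list overlapped, with 8378 to 8875 CPM in the NTC libraries and 7676 to 8807 CPM in the guide libraries. Members of a list can move together, so the share that lay below is not a count of independent results. Fewer cells in mitosis and less of these RNAs per cell cannot be told apart in bulk RNA.

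Replication and G1/S genes were mixed. Of 46 tested, 8 had all guide lines above and 16 all below (median -0.04), beside 20.3% and 19.1% of all genes. RRM2, a subunit of ribonucleotide reductase, had 480 and 468 CPM against 423, 372 and 421 CPM without overlap of any library (log2 difference -0.23, SE 0.06, edgeR adjusted p = 0.329). Thymidine kinase TK1 went the other way, with 27.3 and 26.7 CPM against 32.3, 40.1 and 32.0 CPM (0.36, SE 0.09, edgeR adjusted p = 0.329). Its highest library was harvest 3 of sg5 at 54.3 CPM, and its log2 difference was 0.16 without that library and 0.13 with the GC trend removed. Without harvest 3 of sg5, 1 member of the list lay above and 18 below, beside 16.9% and 14.6% of all genes. DESeq2 called these 2 genes (190 of all 16694), and so did edgeR without line sg5 (570 of all 16499). On all lines edgeR called 0 of the list and had 3 higher and 7 lower at an unadjusted p under 0.05. Among all genes 9.13% were higher and 4.92% lower at that p.

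**Figure D4:**
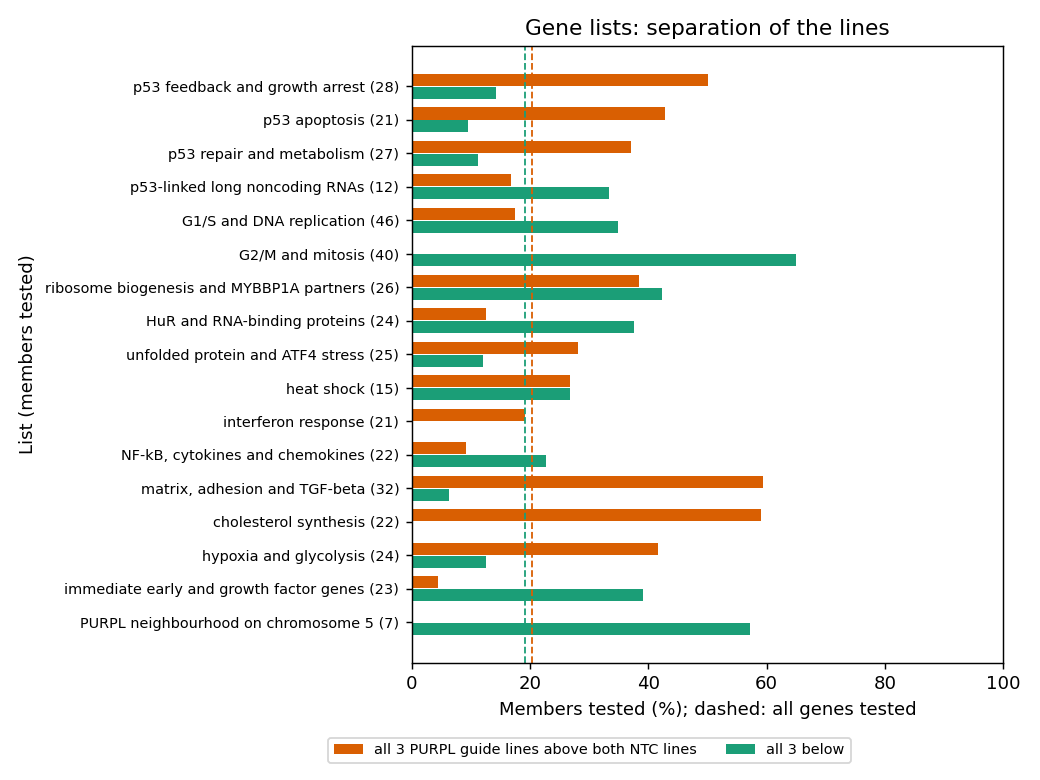
Share of the tested members of 17 gene lists for which all 3 PURPL guide lines lay above (orange) or below (green) both NTC lines, in percent. Dashed lines give the same for all genes tested, 20.3% above and 19.1% below. Of the mitotic genes 65% lay below, and 59.1% of the cholesterol genes and 59.4% of the matrix genes lay above. Members of a list can move together, so these shares are not counts of independent results.

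Cholesterol synthesis genes lay higher, by small amounts. Of 22 tested, 13 had all guide lines above both NTC lines (59.1%) and 0 had all below (median log2 difference 0.12). For all genes tested the shares were 20.3% above and 19.1% below. DHCR7, which makes the last step to cholesterol, had 38.2 and 38.1 CPM against 45.2, 50.9 and 45.1 CPM (0.30, SE 0.06, edgeR adjusted p = 0.329, and 0.15 with the GC trend removed). The isomerase EBP had 0.22 (0.15 without harvest 3 of sg5), squalene synthase FDFT1 0.14 and SREBF2, the transcription factor of the pathway, 0.21 (0.08 with the GC trend removed). In the list edgeR called 0 members, and 10 were higher and 0 lower at an unadjusted p under 0.05. Among all genes 9.13% were higher and 4.92% lower at that p. DESeq2 called 3 as higher, DHCR7, EBP and FDPS, and edgeR without line sg5 called 9, all higher. DESeq2 called 131 of all 16694 genes higher, and edgeR without line sg5 366 of 16499. The medians of the list by guide were 0.14 (sg4), 0.12 (sg5) and 0.11 (sg6). Without harvest 3 of sg5, 14 members lay above, beside 16.9% of all genes. The summed level of the list overlapped, with 2134 to 2522 CPM in the NTC libraries and 2323 to 2735 CPM in the guide libraries.

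Matrix, adhesion and TGF-beta genes had 19 of 32 above (59.4%) and 2 below (median 0.15, or 0.08 with the GC trend removed). For all genes tested the shares were 20.3% above and 19.1% below. In 5 of the list every guide library exceeded every control library, beside 0.749% of all genes. The summed level of the list overlapped, with 11563.8 to 12805.1 CPM in the NTC libraries and 12070.3 to 13559.5 CPM in the guide libraries. LOXL2, which cross-links collagen, had 190, 194, 178 and 191 CPM in the NTC libraries and 200 to 252 CPM in the guide libraries (log2 difference 0.23, SE 0.05, edgeR adjusted p = 0.329), and 0.08 with the GC trend removed. In the list edgeR called 0 members, with 12 higher and 2 lower at an unadjusted p under 0.05. Among all genes 9.13% were higher and 4.92% lower at that p. DESeq2 called LOXL2 and TAGLN (190 of all 16694 genes), and edgeR with the GC trend removed called 0. Without line sg5, edgeR called 5, all higher, beside 366 of all 16499 genes. THBS1 (thrombospondin 1) had 0.14 and the collagen gene COL5A1 0.31 (0.13 with the GC trend removed). The cross-linking enzyme LOX (-0.23) and the collagenase MMP1 (-0.87) were the 2 that lay below. COL1A2 had the largest log2 difference of the list, 1.86, but from 0.015 to 0.056 CPM in the NTC libraries and 0.078 to 0.27 CPM in the guide libraries. Of 12 fibroblast and mural markers, which share COL1A1, COL1A2 and ACTA2 with this list, 9 had all guide lines above and 2 below (median 0.31). Their summed level ran from 4296 to 4517 CPM in the NTC libraries and from 3937 to 4278 CPM in the guide libraries, carried by VIM (-0.09), and DCN, a fibroblast marker, stayed at or below 0.1 CPM. Their part in the matrix values was not tested. Adhesion molecule L1CAM, which is in no list and was named after its values were seen, had 38.1 and 39.3 CPM against 49.4, 62.2 and 50.3 CPM, again with every guide library above every control library (0.48, SE 0.09, edgeR adjusted p = 0.329, and 0.29 with the GC trend removed).

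MYBBP1A, the described partner of PURPL, had 23.8 and 22.9 CPM against 25.6, 31.8 and 25.2 CPM (log2 difference 0.24, SE 0.10, edgeR adjusted p = 0.341). Harvest 3 of sg5 stood at 42.6 CPM against 21.2 to 28.9 CPM in the other 5 guide libraries, and the log2 difference was 0.04 without that library and also with the GC trend removed. In the list of ribosome biogenesis genes and MYBBP1A partners, 10 of 26 had all guide lines above and 11 all below (median 0.01). Without harvest 3 of sg5 these were 3 and 8. For all genes tested the shares on all libraries were 20.3% above and 19.1% below, and 16.9% and 14.6% without harvest 3 of sg5. Nucleolin (NCL) had -0.09 and nucleophosmin (NPM1) -0.06. ELAVL1, the gene of the RNA-binding protein HuR, had 138 and 138 CPM against 141, 132 and 139 CPM (-0.01, SE 0.04, 95% interval -0.11 to 0.09; -0.05 without harvest 3 of sg5), and of 24 RNA-binding proteins 3 lay above and 9 below (median -0.02), or 2 and 5 without harvest 3 of sg5.

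The remaining lists had small medians. Their counts above and below stand beside 20.3% and 19.1% of all genes tested, or 16.9% and 14.6% without harvest 3 of sg5. Unfolded protein and ATF4 stress genes had 7 of 25 above and 3 below (median 0.04; 1 below without harvest 3 of sg5), with PHGDH, the first enzyme of serine synthesis, at 0.42. Heat shock genes had 4 and 4 of 15 (-0.01; 1 and 6 without harvest 3 of sg5), interferon response genes 4 and 0 of 21 (0.07), and hypoxia and glycolysis genes 10 and 3 of 24 (0.04), with aldolase A (ALDOA) at 0.41. ALDOA had 225 CPM in harvest 3 of sg5 and 97.8 to 155 CPM in the other guide libraries, and its log2 difference was 0.22 without that library. Immediate early and growth factor genes had 1 of 23 above and 9 below, with a median of -0.06, or -0.17 with the GC trend removed and -0.12 without harvest 3 of sg5. Among them EGR1 was at -0.63, the growth factor EREG at -0.39 (-0.25 without harvest 3 of sg5) and the transcription factor KLF6 at -0.18. The 7 tested genes on the list for the PURPL neighbourhood on chromosome 5 had 4 below, PURPL included (median -0.09, or -0.04 with the GC trend removed). CDH10, a cadherin gene near PURPL, had -0.04 and CDH18 -0.01 (0.01 and 0.02 with the GC trend removed), and DROSHA, which starts microRNA processing, had 115 and 114 CPM against 109, 101 and 105 CPM (-0.12, SE 0.04, edgeR adjusted p = 0.329). In all 17 lists, which hold 415 tested genes, PURPL was the 1 gene that passed in edgeR. Of the markers of other cells, 4 of 8 endothelial, 2 of 5 hepatocyte, 1 of 7 epithelial and 1 of 5 leukocyte genes tested had all guide lines above, and 0, 1, 0 and 1 all below. Their median log2 differences were 0.46, 0.08, 0.03 and -0.43.

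Single guide lines differed in a few genes, and so did the control lines. In the model of 5 line means 15293 genes were tested. Line sg4 gave 1 call against the NTC mean (0.00654%), PURPL, and sg5 and sg6 gave 3 each (0.0196%), namely PURPL, ABCC2 and IL7R. NTC2 against NTC1 gave 2 calls (0.0131%), again ABCC2 and IL7R, and 109 genes at an unadjusted p under 0.05 (0.713%). At an unadjusted p, sg4 had 325 genes (2.13%), sg5 2085 (13.6%) and sg6 240 (1.57%). Without harvest 1 of sg5 that line gave 1845 calls (1748 higher, 97 lower), when its value rests on harvest 3 with its GC slope of 0.338, and without harvest 3 it gave 10. The calls for NTC2 against NTC1 went to 0 without either harvest of NTC1, NTC2, sg4 or sg6, and those of sg6 to 1 without either harvest of NTC1, NTC2 or sg6.

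ABCC2 encodes a transporter of organic anions and IL7R the receptor for interleukin 7. ABCC2 had 42.9 and 43.8 CPM in the libraries of NTC1, 19.8 and 18.9 CPM in those of NTC2, 43.7 and 47.5 CPM in sg4, 79.4 and 60.8 CPM in sg5 and 65.5 and 56.2 CPM in sg6. NTC2 thus stood apart from NTC1, and NTC1 lay close to sg4. Against the NTC mean the log2 difference was 0.65 (SE 0.11, edgeR adjusted p = 1) for sg4, 1.27 (SE 0.11, 0.00358) for sg5 and 1.06 (SE 0.11, 0.0183) for sg6, and NTC2 against NTC1 had -1.16 (SE 0.13, 0.0493). IL7R was also lowest in NTC2 and highest in sg5, with 36.9 CPM in NTC1, 15.8 in NTC2, 33.1 in sg4, 54.4 in sg5 and 47.9 in sg6 as line sums, so that sg4 lay between the NTC lines. Its log2 difference was 1.18 (SE 0.11, edgeR adjusted p = 0.00388) for sg5, 0.99 (SE 0.11, 0.0206) for sg6 and -1.22 (SE 0.13, 0.0493) for NTC2 against NTC1. With the lines as replicates neither gene passed (edgeR adjusted p = 0.417 for ABCC2 and 0.491 for IL7R), and the 2 NTC lines differed from each other by as much.

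Among sg4, sg5 and sg6 themselves 0 of 15293 genes passed an edgeR adjusted p of 0.05 and 294 had an unadjusted p under 0.05 (1.92%), while DESeq2 called 17. PPME1, a phosphatase methylesterase, had the smallest adjusted p of the genes described here (0.633). It had 238 and 232 CPM in sg4, 369 and 370 CPM in sg5 and 325 and 327 CPM in sg6, beside 245, 249, 247 and 288 CPM in the NTC libraries, so that the guide lines lay on either side of the controls. FAM241B had 16.8 CPM in NTC1 and 5.35 CPM in NTC2 against 15.6, 20.0 and 19.0 CPM in the guide lines. Both were named after their values were seen.

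**Figure D5:**
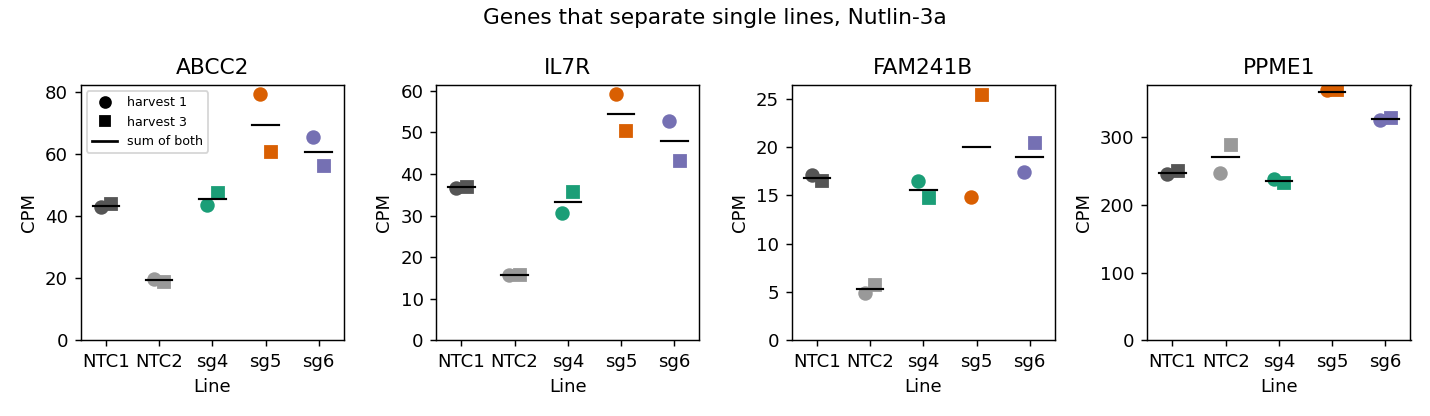
Level in CPM of ABCC2, IL7R, FAM241B and PPME1 in each of the 10 libraries, by line, on axes that start at 0. Circles are harvest 1, squares harvest 3, and bars the summed harvests. For ABCC2, IL7R and FAM241B the NTC2 libraries lie lowest, and for PPME1 the sg5 and sg6 libraries lie above those of sg4.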

How the data were processed

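RNA of SK-HEP-1 CRISPRi lines was made into stranded libraries of messenger RNA (protocols in the labels). The authors' table gives an estimated count for each gene from RSEM, as deposited. The submitters' processing notes name cutadapt, STAR, RSEM, DESeq2 and hg38. Versions and the strand setting are not given there. Between 5.62% and 6.13% of a library's values were not whole, and all were rounded to whole numbers. The 45 rows for second copies of pseudoautosomal genes (0.0222% of counts) were added to their X rows, which left 58825 genes.

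Harvests 1 and 3 of each line were summed. Genes were kept with filterByExpr in edgeR 4.0.16 (R 4.3.3, minimum count 10), scaled with TMM and tested with the robust quasi-likelihood F test of edgeR, Benjamini-Hochberg adjusted over all 16694 genes and called at 0.05. CPM uses the TMM-scaled totals, so at 1 CPM about 66.4 to 79.4 counts stand behind a library's value. Single guides, the NTC lines and differences among guides were tested with edgeR in a model of 5 line means over the 10 libraries. Residual degrees of freedom between lines were 3. The labels call the harvests biological replicates, and the p-values of the line comparison measure the spread between these 5 lines. The test on line sums and the test of sg4 in the model of line means were checked on simulated counts with 200 changed genes. The other tests were not checked in this way.

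Named genes were PURPL and others past the threshold, the 6 with the smallest p in each direction at 1 CPM or more, 2 of each list by p, MDM2, CDKN1A, BTG2, MYBBP1A and ELAVL1, and up to 3 calls per guide and direction; other members are named as examples, and some genes are not reported here. The members, the 17 gene lists and 6 marker lists and the tests were chosen with earlier results of these data known. Of the list symbols, 5 matched no gene. Gene coordinates and GC content (longest transcript, known for 99.7% of genes tested) came from GENCODE 29. The alternatives tried were DESeq2 1.42.0, size factors by RLE, filters at 1 CPM or none, a minimum fold of 2, no robust step, libraries as replicates with and without a block for the harvest number, limma 3.58.1 (voom) with line as a random block, each line, harvest or library left out, sg2 added, and the lowess trend on GC removed. Libraries with GC removed and no block, and list counts without harvest 3 of sg5, were added after the data were seen.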

Additional observations from a re-analysis of the deposited data

Results flagged for a closer look

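A library lay far from the others of its group for 9 of 102 sets of libraries checked (a gap test that chance alone passes in about 1 of 20 sets). Harvest 3 of sg5 was the highest guide library for SLC7A5, an amino acid transporter (148 CPM, the other 5 at 88.6 to 109 CPM), HSPB1, a small heat shock protein (15.9 CPM, others 4.91 to 8.84 CPM), and MYBBP1A (42.6 CPM, others 21.2 to 28.9 CPM). This library had the steepest GC slope of the 10. Harvest 1 of sg5 was the lowest for ELAVL1 (121 CPM, others 138 to 144 CPM), and harvest 1 of sg6 the highest for RGS4 (136 CPM, others 118 to 122 CPM). Among the 4 NTC libraries, harvest 1 of NTC2 was the lowest for SFN (6.71 CPM, others 8.90 to 9.29 CPM) and COL1A2 (0.0151 CPM, others 0.0506 to 0.0564 CPM) and the highest for MDM2 (4300 CPM, others 3844 to 3867 CPM). Harvest 3 of NTC1 was the highest for NEAT1 (498 CPM, others 313 to 331 CPM).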

How the results depend on the processing

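PURPL kept its direction under all 31 alternatives and its call under 30. With sg2 added from both harvests its log2 difference was -4.16 and did not pass (edgeR adjusted p = 0.432), and the count of genes called was 0. With harvest 3 of sg2 alone added it was -4.06 (edgeR adjusted p = 4.88e-05), and PURPL was the 1 gene called. Leaving out a line, harvest or library gave log2 differences of -4.11 to -3.81. The count of 1 gene called became 190 with DESeq2, 172 with no filter, 6 with the GC trend removed, 3 with libraries as replicates, the replicate block and GC removed together, and 2 with voom; leaving out lines, harvests or libraries gave 1 to 570, with 570 without line sg5 and 265 without harvest 3 of sg4. The GC-removed calls were PURPL, CXCL8, HERC2P2, CCND2, LRRC7 and BIVM-ERCC5, a readthrough gene at 0 in all 4 NTC libraries and under 0.5 CPM elsewhere. The cause of these shifts was not tested. Harvest 3 of sg2, outside the comparison, had a GC slope of -0.078 and 1.42 CPM of PURPL. Its CXCL8 (3.09 CPM), RGS4 (124 CPM) and LRRC7 (2.94 CPM), for example, lay within the range of the guide libraries and outside that of the NTC libraries. Its MT-ND6 (16.9 CPM), RRM2 (466 CPM) and CENPE (92.3 CPM) lay within the NTC range and outside the guide range.

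Over genes of at least 1 CPM, deviations of the harvests correlated between lines at -0.608 to 0.657, with both signs. Some measures still moved the same way between harvests in each of the 5 lines, namely CXCL8, CXCL1, MT-ND6 and the mitochondrial share. Whether the lines share a harvest effect was not tested. With the replicate block, libraries as replicates gave 1 call, as without it. In the model of line means the block gave 1, 3 and 2 calls for sg4, sg5 and sg6, 0 for NTC2 against NTC1 and 0 among guides. That model gave, for sg4, 3 calls with no filter, 4 with DESeq2 and 2 with GC removed; for sg5, 29, 31 and 5; for NTC2 against NTC1, 4 with no filter; among guides, 8 with no filter and 17 with DESeq2. Libraries left out gave 1 for sg4, 3 to 1845 for sg5, 1 to 4 for sg6, 0 to 3 for NTC2 against NTC1 and 0 to 1 among guides.

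Of 60 genes followed, 57 kept their direction in each alternative run. MKI67 had -0.338 from harvest 1 alone and 0.0368 from harvest 3 alone, its range with lines, harvests or libraries left out, and MDM2 had -0.0195 with sg2 added. ELAVL1 ran from -0.0485 to 0.0384 over the same omissions (0.0184 without line sg5, 0.0209 from harvest 3 alone, 0.00543 without harvest 3 of NTC1) and had 0.00017 with sg2 added, 0.0138 with GC removed and, with libraries as replicates and GC removed, 0.0163 with the block and 0.017 without it. With 3 lines against 2, a small difference that varies between lines could not be told from 0, and below 1 CPM counting error adds to it.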
